A study of Homo sapiens with 15 samples.

Results

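RUNX1 was called without GATA2, in both lines, at 1073 places on the autosomes of TF-1 cells, a human erythroleukemia cell line. The peaks of all 6 deposited lists were joined into union regions wherever they overlapped by 1 bp or more, which gave 96158 regions on the autosomes. A region was kept if it held a RUNX1 peak of the RAD21 Q592* line and a RUNX1 peak of the RAD21 WT line and no GATA2 peak of either. SMC3 could be present or absent. The 1073 regions are 1.12% of all autosomal union regions and 13.9% of the 7718 regions with RUNX1 in both lines. Of the other stable RUNX1 regions, 5980 carried GATA2 in both lines, 593 in Q592* alone and 72 in WT alone.

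RUNX1 is the DNA-binding partner of CBFB and directs the making of blood stem cells, megakaryocytes and lymphocytes. GATA2 is a zinc finger factor of blood stem and progenitor cells, and both factors often sit on the same enhancers. SMC3 is a core subunit of cohesin, the ring that holds sister chromatids together and extrudes chromatin loops, and RAD21 is the subunit that closes that ring. Cohesin is known to gather strongly where CTCF stops loop extrusion and more weakly at active enhancers and promoters.

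Chromatin immunoprecipitation with sequencing (ChIP-seq) was done after 6 days of doxycycline on TF-1 cells transduced with an inducible vector. The vector carried Q592*, in which a stop replaces a glutamine codon of RAD21, in one line and wild-type RAD21 (WT) in the other, and both lines received doxycycline. By the labels Q592* has 2 GATA2, 1 RUNX1, 2 SMC3 and 2 input libraries, and WT has 2 of each; the labels do not say whether a line is a clone. Each line and target is represented by 1 peak list, of 1 library for Q592* RUNX1 and named as merged for every list, so values have no replicate error, differences between the lines have no test, and n counts regions. The RUNX1 lists rest on 107 M ChIP reads in Q592* and 105 M in WT, and the 6 lists on 93.4 to 108 M, by totals recovered from the peak values (M is 1000000). Intervals given below are 95% Wilson intervals for a share and 95% Newcombe intervals for a difference between shares, and they cover counting error over regions only.

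The regions were chosen by their RUNX1 and GATA2 peak calls, so the strength of RUNX1 at these regions is a description. The authors' −log10 q, which grows with the evidence for a peak, had a median of 21.5 in the Q592* list (quartiles 12.1 and 39.2) and of 11.3 in the WT list (quartiles 7.62 and 17.8). The regions came from the whole range of both lists. In the Q592* list 412 of the 1073 lay in the top quartile of all peaks and 136 in the lowest. In the WT list 220 lay in the top quartile and 187 in the lowest. A −log10 q of at least 100 was reached by 40 regions in Q592* (3.73%, beside 3.68% of the whole list) and by 2 in WT (0.186%, beside 0.843%).

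Summit coverage puts both lists on one scale. It is the ChIP pileup at the summit divided by the genome-wide background of the list, recovered from the deposited fold enrichment and p. RUNX1 coverage had a median of 14.7 times background in Q592* (quartiles 10.6 and 21.9) and of 10.2 times in WT (quartiles 7.60 and 14.5). Coverage was higher in Q592* at 1014 of the 1073 regions (94.5%), beside 96.5% over all 7718 stable RUNX1 regions. The median log2 ratio of Q592* over WT was 0.54 (quartiles 0.34 and 0.71), and it exceeded 1, a doubling, at 48 regions (4.47%, beside 7.5% over all stable RUNX1 regions). At the 5980 regions with GATA2 in both lines that median was 0.63. The rule used the RUNX1 calls, the ratios set 1 Q592* library against 2 WT libraries, and the fragment length assumed is 143 bp in Q592* and 139 bp in WT, so these ratios are a description with no test. Summits of both lines lay close together, with a median offset of 17 bp, and 956 of the 1073 pairs (89.1%) lay within 50 bp. Other stable RUNX1 regions were similar. The median was 20 bp with GATA2 in both lines (83.2% within 50 bp) and 17 bp with GATA2 in Q592* alone (87.2%).

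**Figure D1:**
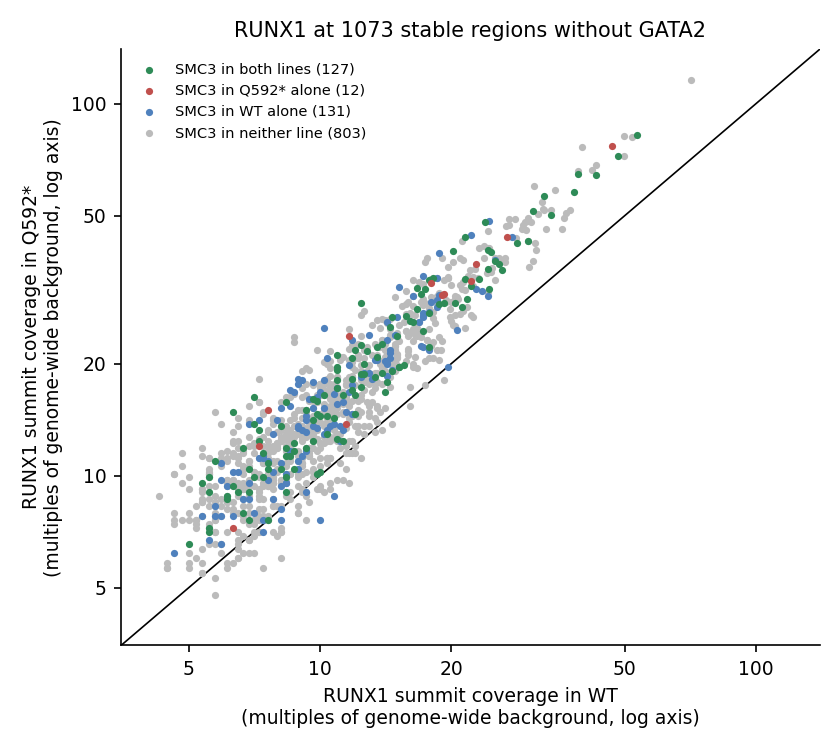
RUNX1 summit coverage in Q592* (vertical) against WT (horizontal), in multiples of each list's genome-wide background on log axes, for the 1073 regions, coloured by the lines in which SMC3 was called; the line marks equal coverage. Nearly all points, 1014 of 1073, lie above the line, and regions with SMC3 are spread through the same range as those without.

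The strongest region by the lower of its RUNX1 −log10 q values lay on chromosome 8 from 61863528 to 61863935 (hg19, as are all coordinates here). Its RUNX1 coverage was 50.2 times background in Q592* and 33.9 times in WT, with summits 1 bp apart. SMC3 was called there in both lines, at a coverage of 8.61 in Q592* and 10.8 in WT. The next, on chromosome 15 from 75445797 to 75446429, had RUNX1 coverage of 64.2 in Q592* and 43.0 in WT and also carried SMC3 in both lines, with coverage of 21.8 in Q592* and 19.9 in WT. RUNX1 coverage was above SMC3 coverage in each line at both places.

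Next in this order came a region on chromosome 8 from 142046118 to 142046545, where RUNX1 coverage reached 81.2 in Q592* and 51.9 in WT and no SMC3 was called. On chromosome 1 from 205180642 to 205181048, RUNX1 coverage was 76.8 in Q592* and 46.7 in WT, and a weak SMC3 peak with a coverage of 11.3 was called in Q592* alone. A second region of chromosome 1, from 9299696 to 9300115, had 51.8 in Q592* and 33.9 in WT and no SMC3. RUNX1 was higher in Q592* at each of these 3 regions, beside 94.5% of all 1073.

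On chromosome 6 from 27261502 to 27261841, RUNX1 coverage was 48.3 in Q592* and 24.5 in WT, a log2 ratio of 0.98, the highest among the 10 strongest regions; SMC3 was called there in WT alone, with a coverage of 8.90. The other 4 of the 10 carried no SMC3. They lay on chromosome 19 (45256534 to 45256912), chromosome 16 (12009786 to 12010144), chromosome 22 (29070068 to 29070507) and chromosome 11 (72452483 to 72452919). Their RUNX1 coverage was 68.3, 65.8, 32.4 and 76.2 in Q592* and, in the same order, 43.0, 39.1, 22.4 and 39.9 in WT. RUNX1 was higher in Q592* at 10 of 10, beside 94.5% of all 1073 regions, with log2 ratios from 0.53 to 0.98. The summits of both lines lay at most 24 bp apart. GATA2 was called 766 to 87874 bp away from these 10 regions. No gene or sequence is attached to any region, because annotation and sequence of hg19 were not used here.

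At the other end, the regions with the weakest RUNX1 sat at the threshold of the WT list, whose lowest −log10 q is 2.05. The 3 weakest, on chromosome 6 (26533023 to 26533361), chromosome 15 (58837663 to 58837860) and chromosome 18 (374655 to 374851), had RUNX1 −log10 q of 7.34, 13.1 and 21.1 in Q592* and of 2.09, 2.12 and 2.13 in WT. Just outside the rule stood stable RUNX1 regions with a barely called GATA2 peak. The weakest such GATA2 peaks lay on chromosome 4 (95406691 to 95407129), with a −log10 q of 2.04 in WT, and on chromosome 2 (26552785 to 26553399), with 2.07 in Q592*. GATA2 below the threshold of its lists cannot be seen, so absence here means absence from the lists.

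Cohesin was called at a minority of the regions in each line. The Q592* SMC3 list holds 32789 peaks and the WT list 42353, so fewer calls in Q592* have no test and cannot be told apart from the shorter list. SMC3 was present at 139 of 1073 in Q592* (12.95%, 11.1 to 15.1%), beside 32.3% over all stable RUNX1 regions, and at 258 of 1073 in WT (24.0%, 21.6 to 26.7%), beside 52.5%. Both lines carried it at 127 regions (11.8%, beside 29.3% over all stable RUNX1 regions). It was called in Q592* alone at 12 (1.12%, beside 2.95%) and in WT alone at 131 (12.2%, beside 23.2%). The remaining 803 regions (74.8%, 72.2 to 77.3%) had RUNX1 and neither of the other targets. The rule set no condition on SMC3, but SMC3 peaks took part in the joining, so one that bridges a RUNX1 and a GATA2 peak puts a region into a GATA2 class. The lists of a line may also share input libraries, which was not tested. Recovered input totals were 77.98 M for both GATA2 and RUNX1 in Q592*, and 86.72 M for both RUNX1 and SMC3 in WT. For Q592* SMC3 the total was 72.6 M and for WT GATA2 95.3 M. Calls of different targets in a line may thus not be independent.

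Stable RUNX1 regions with GATA2 in both lines carried SMC3 far more often. The shares there were 37.5% (36.2 to 38.7%) in Q592* and 60.3% (59.1 to 61.6%) in WT. The difference, regions without GATA2 minus regions with it, was -24.5 percentage points in Q592* (-26.8 to -22.0) and -36.3 points in WT (-39.0 to -33.3). Regions with GATA2 were also wider, with a median of 272 bp for the 1073 and 553 bp for those with GATA2. Without joining, with peaks matched by a reciprocal overlap of 50%, the differences were -22.0 points in Q592* (-24.4 to -19.5) and -34.0 points in WT (-36.9 to -31.0). Counted only within the 200 bp around the RUNX1 summit, an alternative chosen after the data were seen, the differences were -22.6 points in Q592* and -34.5 points in WT. With every list held to peaks of −log10 q 10 or more they narrowed to -5.16 points in Q592* (-7.45 to -2.57) and -13.4 points in WT (-16.3 to -10.3), and with lists of equal length the WT difference was -21.5 points.

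The difference was present in each quartile of RUNX1 strength. Regions were split at the quartiles of the WT RUNX1 −log10 q of the 1073. In the lowest quartile SMC3 of Q592* was at 11.6% of the regions without GATA2 and at 35.6% of those with it, and SMC3 of WT at 22.5% without and 54.7% with GATA2. In the top quartile Q592* SMC3 was at 16.7% without and 42.9% with GATA2, and WT SMC3 at 33.5% without and 68.5% with GATA2. The difference lay between -26.2 and -20.8 points in Q592* and between -35.3 and -32.2 points in WT over the 4 quartiles, and the 95% interval of each was below 0.

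Where GATA2 was called in a single line the shares differed by line. These classes were chosen by line, so that pattern cannot be told apart from the choice. With GATA2 in Q592* alone, SMC3 was at 17.9% (15.001 to 21.2%) of 593 regions in Q592* and at 25.6% (22.3 to 29.3%) in WT. The difference was -4.92 points in Q592* (-8.71 to -1.34) and -1.59 points in WT (-6.00 to 2.68). The WT interval included 0. With GATA2 in WT alone, SMC3 was at 5 of 72 regions in Q592* (6.94%, 3.003 to 15.2%) and at 38 of 72 in WT (52.8%, 41.4 to 63.9%). There the difference was 6.01 points in Q592* (-2.50 to 10.5), an interval that included 0, and -28.7 points in WT (-40.1 to -17.1).

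RUNX1 regions of a single line without GATA2 were also set beside them, 2602 with RUNX1 in Q592* alone and 556 with RUNX1 in WT alone. These too were chosen by line, so differences by line cannot be told apart from that choice. Where RUNX1 was in Q592* alone, Q592* SMC3 was at 14.5% of them (13.2 to 15.9%), and the difference, stable regions minus these, was -1.53 points with an interval that included 0 (-3.88 to 0.97). WT SMC3 was at 15.2% (13.9 to 16.7%), and there the stable regions had more, by 8.83 points (5.98 to 11.8). Where RUNX1 was in WT alone, Q592* SMC3 was at 3.78% (2.48 to 5.70%) and WT SMC3 at 15.6% (12.9 to 18.9%). The stable regions had more in both, by 9.18 points in Q592* (6.49 to 11.7) and 8.40 points in WT (4.32 to 12.2).

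**Figure D2:**
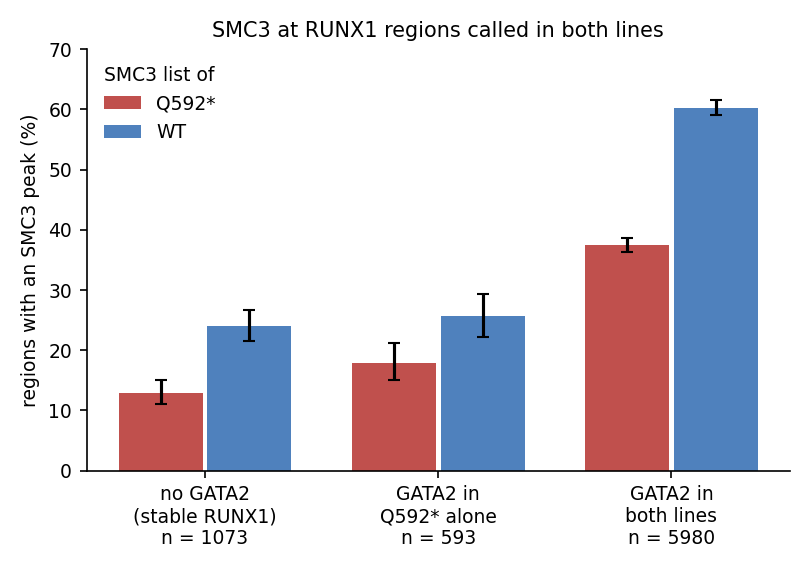
Percentage of stable RUNX1 regions that carry an SMC3 peak of the Q592* list (red) or the WT list (blue), by GATA2 status; bars are shares and error bars 95% Wilson intervals. The regions without GATA2 stand at 12.95% in Q592* and 24.0% in WT, and those with GATA2 in both lines at 37.5% in Q592* and 60.3% in WT.

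The SMC3 peaks at the regions without GATA2 were more often strong than those at regions with GATA2 in both lines. Beside their autosomal lists as a whole, they had a median near that of the list in Q592* and below it in WT. In Q592* the top quartile of the list held 35.97% of these peaks, and in WT 21.3%. Their median −log10 q was 24.4 in Q592*, where the autosomal list has 25.3, and 10.4 in WT, where it has 18.4. Calls below the list median were 70 of 139 in Q592* (50.4%, 42.2 to 58.5%) and 170 of 258 in WT (65.9%, 59.9 to 71.4%), and at regions with GATA2 in both lines 92.1% in Q592* and 85.6% in WT. Of the 139 Q592* SMC3 calls, 50 belonged to the top quartile of the autosomal Q592* SMC3 list (35.97%, 28.5 to 44.2%), compared with 79 of 2240 (3.53%, 2.84 to 4.37%) at regions with GATA2 in both lines. The difference was 32.4 points (24.9 to 40.7). In the WT list 55 of 258 calls were in the top quartile (21.3%, 16.8 to 26.7%), compared with 104 of 3607 (2.88%, 2.39 to 3.48%), a difference of 18.4 points (13.8 to 23.9). Strong cohesin was not particular to the stable regions. Where RUNX1 was in Q592* alone without GATA2, 143 of 377 Q592* calls (37.9%) and 148 of 396 WT calls (37.4%) were in the top quartile. The stable regions differed from these by -1.96 points in Q592* (-11.0 to 7.57) and by -16.1 points in WT (-22.7 to -8.95). With every list held to peaks of −log10 q 10 or more, the WT difference from regions with GATA2 was 29.9 points.

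SMC3 calls of a single line were weaker than those of both lines. The classes were set by these same calls, so this contrast is a description and cannot be told apart from that choice. At the 127 regions with SMC3 in both lines the median SMC3 −log10 q was 28.4 in Q592* (quartiles 9.98 and 72.7) and 33.7 in WT (quartiles 13.4 and 100.1). SMC3 coverage had a median of 20.1 times background in Q592* and 19.9 times in WT. At the 131 regions with SMC3 in WT alone the WT median was 6.63 for −log10 q and 7.66 for coverage. The 12 regions with SMC3 in Q592* alone had a Q592* median of 5.28 for −log10 q and 9.76 for coverage. Among stable regions with GATA2 the 2052 with SMC3 in both lines had medians of 8.22 in Q592* and 11.6 in WT for −log10 q, well under those of the regions without GATA2. With GATA2 in both lines the single-line calls were alike, with a median of 6.63 in WT alone and 5.17 in Q592* alone. Weak single-line calls were thus not particular to the regions without GATA2.

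Cohesin was the taller signal at many of the regions that carried it. SMC3 coverage exceeded RUNX1 coverage at 68 of 139 in Q592* (48.9%, 40.8 to 57.1%), compared with 240 of 2240 (10.7%) at regions with GATA2 in both lines, a difference of 38.2 points (29.9 to 46.5). In WT it did so at 118 of 258 (45.7%, 39.8 to 51.8%), compared with 1064 of 3607 (29.5%), a difference of 16.2 points (10.1 to 22.5). SMC3 and RUNX1 coverage come from different antibodies, and RUNX1 was lower in WT.

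**Figure D3:**
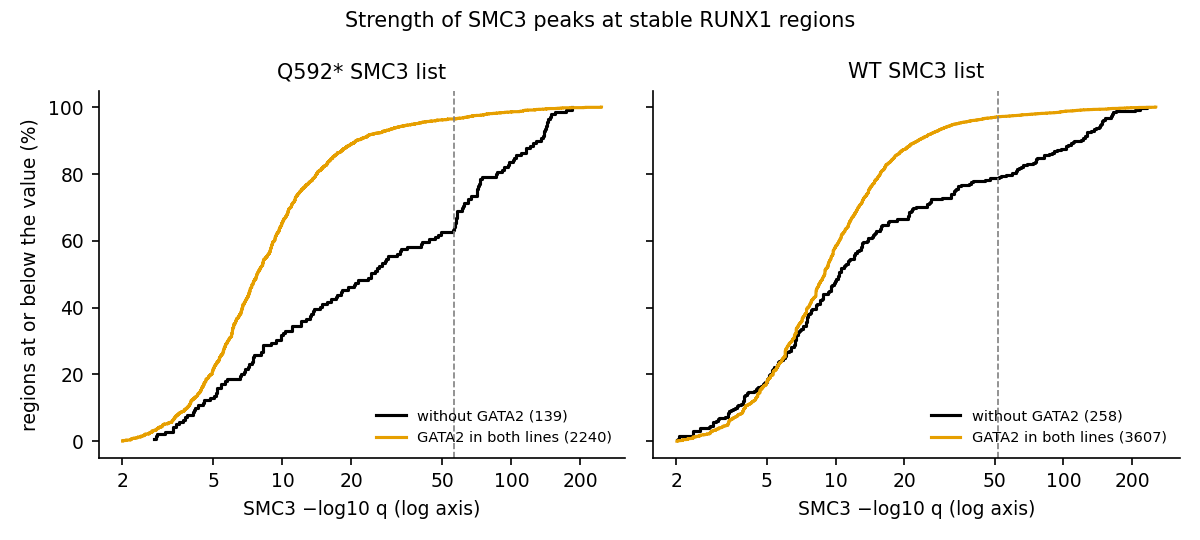
Cumulative share of regions (vertical, %) by the −log10 q of their SMC3 peak (horizontal, log axis), for the Q592* list (left) and the WT list (right); black, stable RUNX1 regions without GATA2; orange, those with GATA2 in both lines; dashed, the bound of the top quartile of the list. The black curves have long upper tails, with 35.97% of calls past the bound in Q592* and 21.3% in WT, and the orange ones have 3.53% in Q592* and 2.88% in WT.

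The 3 regions named next were among those with high SMC3 −log10 q in both lines. They had RUNX1 coverage between the quartiles given above in each line. SMC3 −log10 q was 183, 155 and 148 in Q592* and, in the same order, 231, 216 and 170 in WT. They are not the 3 highest of the Q592* list, where other regions without GATA2 reached 173 and 149. Nor are the 3 named regions the highest by SMC3 coverage, which reached 79.6 in Q592* and 86.3 in WT among all regions without GATA2. On chromosome 1 from 157459059 to 157459714, SMC3 coverage was 50.9 in Q592* and 60.0 in WT, whereas RUNX1 coverage was 15.04 in Q592* and 9.27 in WT. The SMC3 summit lay 40 bp from the RUNX1 summit in Q592* and 5 bp in WT. On chromosome 6 from 134961809 to 134962548, SMC3 coverage was 46.5 in Q592* and 52.4 in WT and RUNX1 coverage 15.9 in Q592* and 9.82 in WT. The third, on chromosome 19 from 47032823 to 47033526, had SMC3 coverage of 50.3 in Q592* and 56.9 in WT, with a summit 283 bp from that of RUNX1 in both lines. At the third place RUNX1 coverage was 18.7 in Q592* and 12.4 in WT, and SMC3 coverage was above RUNX1 coverage at all 3 in both lines.

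Over the 127 regions with SMC3 in both lines the summits were usually close. The median distance between the SMC3 and the RUNX1 summit was 35 bp in Q592* and 38 bp in WT, and 80 regions in Q592* and 85 in WT had it within 50 bp. At the 2052 regions with GATA2 and SMC3 in both lines the medians were 61.5 bp in Q592* and 64 bp in WT. Those regions were also wider, with a median of 693 bp compared with 463 bp for the 127. A wider region leaves room for a longer distance, and the part of width in this contrast was not tested.

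WT cohesin at these regions was called again in the mutant line at 127 of 258 places. The share was 49.2% (43.2 to 55.3%), beside 71.1% over all autosomal regions with WT SMC3. At regions with GATA2 in both lines the share was 56.9% (55.3 to 58.5%), a difference of -7.66 points (-13.9 to -1.38). Classes called in a single line lay on both sides of this. Without GATA2 it was 319 of 396 (80.6%, 76.4 to 84.2%) where RUNX1 was in Q592* alone, and 21 of 87 (24.1%, 16.4 to 34.1%) where RUNX1 was in WT alone. The difference, stable regions minus these, was -31.3 points (-38.4 to -24.0) for RUNX1 in Q592* alone and 25.1 points (13.4 to 34.9) for RUNX1 in WT alone. At stable regions with GATA2 in WT alone it was 5 of 38 (13.2%), a difference of 36.1 points (20.7 to 45.6). The single-line classes were chosen by line, so the direction of their differences cannot be told apart from that choice.

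The share called again differed with the strength of the WT peak. In the top quartile of the WT SMC3 list 55 of 55 regions without GATA2 and 104 of 104 with it also had SMC3 in Q592*, and in the quartile below it 32 of 33 without and 394 of 417 with GATA2 did. In the second quartile 26 of 72 regions without GATA2 had it (36.1%), compared with 1055 of 1632 with GATA2 (64.6%), a difference of -28.5 points (-38.9 to -16.8). In the lowest quartile 14 of 98 had it (14.3%), compared with 499 of 1454 (34.3%), a difference of -20.0 points (-26.1 to -11.4). With both lower quartiles joined it was at 40 of 170 regions without GATA2 (23.5%, 17.8 to 30.4%) and at 1554 of 3086 with GATA2 (50.4%, 48.6 to 52.1%), a difference of -26.8 points (-32.8 to -19.7). With every list held to peaks of −log10 q 10 or more that difference shrank to -11.8 points (-19.2 to -0.19).

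**Figure D4:**
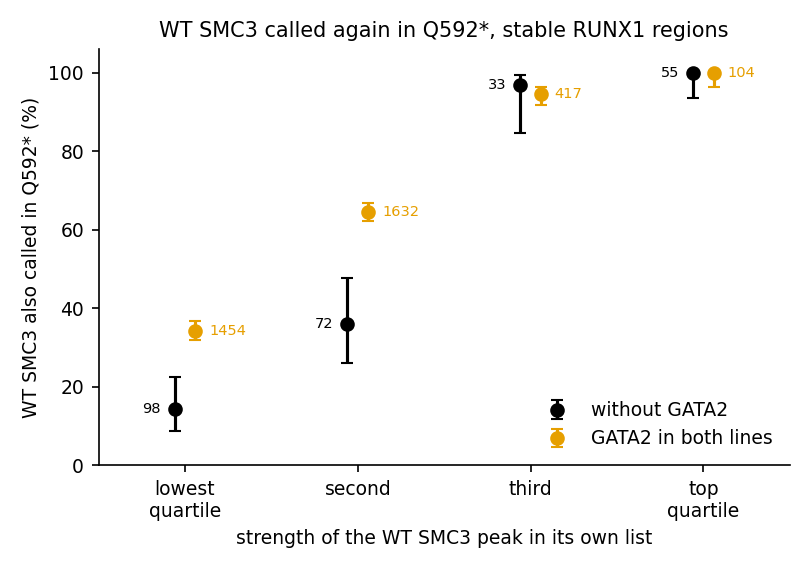
Percentage of stable RUNX1 regions with a WT SMC3 peak that also carry a Q592* SMC3 peak, by the quartile of the WT SMC3 list in which the WT peak falls; black, regions without GATA2; orange, with GATA2 in both lines; error bars are 95% Wilson intervals and the numbers beside the points count regions. In the lowest quartile the shares are 14.3% without and 34.3% with GATA2, in the second 36.1% without and 64.6% with it, and both reach 100% in the top quartile.

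Single regions show the range. Where SMC3 was called in WT alone the highest SMC3 −log10 q, 18.6, lay on chromosome 1 from 169013524 to 169013942, with a WT SMC3 coverage of 9.11; RUNX1 coverage there was 17.0 in Q592* and 8.53 in WT. Next by −log10 q were chromosome 20 from 42381164 to 42381548, with a −log10 q of 17.2 and a higher WT SMC3 coverage of 14.3, and chromosome 3 from 141088999 to 141089385, with 16.9 and a coverage of 12.01. RUNX1 was higher in Q592* at all 3, beside 94.5% of the 1073 regions. Where SMC3 was called in Q592* alone the highest SMC3 −log10 q, 7.49, was on chromosome 8 from 130430795 to 130431279, with a Q592* SMC3 coverage of 6.51, below the class median, and RUNX1 coverage of 7.25 in Q592* and 6.30 in WT. Next by −log10 q came the region of chromosome 1 from 205180642 already described, with 7.34, and one on chromosome 4 from 81000730 to 81001075, with 6.82 and a Q592* SMC3 coverage of 7.46.

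The median log2 ratio of RUNX1 coverage, Q592* over WT, was 0.58 with SMC3 in both lines, 0.70 with SMC3 in Q592* alone, 0.56 with SMC3 in WT alone and 0.53 with none. The quartiles overlapped, at 0.44 and 0.74 for SMC3 in both lines and 0.30 and 0.71 for none. For SMC3 itself the median log2 ratio at the 127 regions was -0.11 (quartiles -0.27 and 0.02), and 35 of 127 were higher in Q592* (27.6%), beside 28.6% over all autosomal regions with SMC3 in both lines. The SMC3 fragment length assumed is 151 bp in Q592* and 126 bp in WT, a log2 difference of 0.26 that is larger than this ratio.

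The gap to the nearest GATA2 peak of either line had a median of 6241 bp (quartiles 1910 and 17798), and of 11337 bp with every list held to peaks of −log10 q 10 or more. GATA2 was within 1000 bp at 161 regions (12.99 to 17.3%), within 10000 bp at 654 (60.95%, 58.0 to 63.8%) and beyond 100000 bp at 25. The median gap was 6695 bp to the longer Q592* GATA2 list and 12669 bp to the WT list. At regions with RUNX1 in Q592* alone and no GATA2 the median gap was 8218.5 bp, with 54.2% (52.2 to 56.1%) within 10000 bp, and at those with RUNX1 in WT alone 72.5% (68.6 to 76.0%) were. These gaps come from the lists that the rule used and are given as a description.

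The extremes were a region on chromosome 11 from 10765292 to 10765592, with GATA2 called 1 bp away in Q592*, and one on chromosome 18 from 56554867 to 56555170, with the nearest GATA2 peak 462448 bp away. RUNX1 coverage was 21.8 in Q592* and 9.82 in WT at the first, and 18.6 in Q592* and 11.9 in WT at the second. A region on chromosome 20 from 62199132 to 62199519, 331041 bp from GATA2, had 50.6 in Q592* and 31.7 in WT. Of these 3 regions, the one on chromosome 20 had the highest RUNX1 coverage in both lines.

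**Figure D5:**
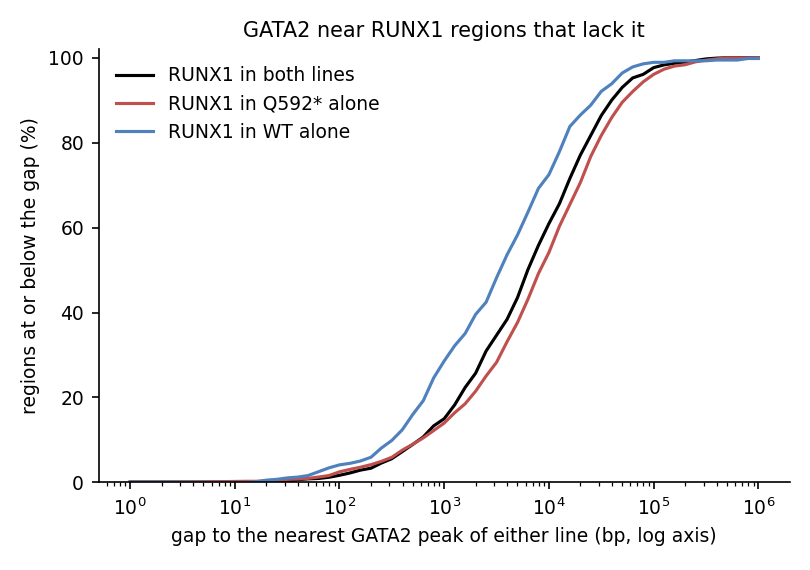
Cumulative share of RUNX1 regions without GATA2 (vertical, %) by the gap to the nearest GATA2 peak of either line (horizontal, bp, log axis); black, RUNX1 in both lines; red, in Q592* alone; blue, in WT alone. By 10000 bp the curves stand at 60.95% (both lines), 54.2% (Q592* alone) and 72.5% (WT alone).

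Few of the regions had another of them nearby, and random placement was not compared. The median gap from one to the nearest other on either side was 541320 bp. Another lay within 10000 bp of 46 of the 1073 (4.29%) and within 1000 bp of 4. The nearest stable RUNX1 region with GATA2 in both lines was at a median of 86574 bp. They were found on all 22 autosomes and made up 11.1% (chromosome 5) to 25.5% (chromosome 19) of the stable RUNX1 regions of a chromosome. On chromosome 19 they were 41 of 161, compared with 1032 of 7557 (13.7%) on the other autosomes, a difference of 11.8 points (5.65 to 19.1). Chromosome 16 came next with 38 of 179 (21.2%), with the interval of the difference from the other autosomes at 2.09 to 14.1 points. Both chromosomes were singled out after their values were seen. The 5 Mb window with the most regions was that of chromosome 6 from 25 to 30 Mb, with 14 of its 42 stable RUNX1 regions.

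The local background that the peak caller used was higher at the 1073 regions than at regions with GATA2 in both lines. It had a median of 2.66 times the genome-wide value in the Q592* RUNX1 list and of 2.24 times in the WT list at the 1073 regions, compared with 2.25 times in Q592* and 1.79 times in WT at regions with GATA2 in both lines. Other classes did not follow GATA2. With GATA2 in WT alone the Q592* median was 2.91 times, and with RUNX1 in WT alone and no GATA2 the WT median was 1.39 times. In at least 1 RUNX1 list the local background exceeded 2 times the genome-wide value at 796 of the 1073 (74.2%), compared with 64.3% of those with GATA2 in both lines. Without such regions 277 remained, and the SMC3 share was 9.03% in Q592* and 18.4% in WT, with differences from regions with GATA2 of -26.3 points in Q592* and -35.4 points in WT. Both differences were within the intervals found with all regions.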

How the data were processed

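The deposited files are 6 peak lists, 1 per line and target, whose peak names carry the word merge; none holds values per library. Tools named per the submitters' processing notes are MACS2, Bowtie2 and Picard, with build hg19, and their versions are not stated in what was used. As deposited, fold enrichment (a ratio of ChIP pileup to local background), −log10 p and −log10 q are the authors' values at each summit. The deposited score was not used. Coordinates count from 1.

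Summit pileup and local background were recovered from fold and p. With 1 fitted worth of a ChIP read per list, at least 99.9966% of the peaks of each list gave a whole number of reads (tolerance 0.002 in −log10 p); with that worth set wrong by 3%, at most 1.71% did. Totals assume a genome of 2700000000 bp and a fragment as long as the narrowest peak. PCR duplicates and variation between libraries are not covered by any interval. Recovery, joining, gaps and intervals were tested on simulated data.

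Members, classes and comparisons were chosen with earlier results of these data known. Regions are named by a fixed rule. It took the 10 highest by the lower RUNX1 −log10 q and the 3 weakest by RUNX1. It also took 3 regions by SMC3 −log10 q in each SMC3 class. With SMC3 in both lines those 3 were not the 3 highest of the Q592* list. Regions named by their GATA2 gap or weak GATA2 were added after values were seen. Planned shares of motifs and promoters and 8 gene lists need sequence or annotation of hg19, not used here. The software was matplotlib 3.10.9, pandas 2.3.3, numpy 2.4.6 and scipy 1.17.1 under Python 3.11.15.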

Additional observations from a re-analysis of the deposited data

How the results depend on the processing

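No paired analysis was possible because each line and target has 1 peak list with no values per library; the Q592* RUNX1 list has 1 library and the others 2. No library could be left out for the same reason. The 45 alternative values for differences from regions with GATA2 all kept their direction, with intervals that exclude 0; motif and promoter alternatives were not run. The 200 bp window and the limit of 5 times background were chosen after seeing the data. A RUNX1 −log10 q of at least 10 left 585 regions, with WT SMC3 at 27.2%. The same limit on all lists gave SMC3 shares of 10.2% in Q592* and 16.5% in WT and a median gap to GATA2 of 11337 bp. Lists of equal length gave 16.1% in Q592* (13.9 to 18.5%) and 17.9% in WT (15.7 to 20.4%). The WT share was higher by a smaller margin, with overlapping intervals and no test between the lines. Leaving out regions with local background over 2 times left 277, with 9.03% in Q592* and 18.4% in WT. The cause of these changes was not tested. Peaks below the lists' thresholds limit every count of absent GATA2 or SMC3.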

Other observations

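Most regions had a RUNX1 coverage higher in Q592*, and the exceptions were small. The largest log2 ratio, Q592* over WT, was 1.43 on chromosome 17 from 6684227 to 6684494, with coverage of 23.5 in Q592* and 8.71 in WT. The smallest was -0.44 on chromosome 9 from 66260455 to 66260668, with coverage of 6.01 in Q592* and 8.16 in WT. Next lowest was -0.40 on chromosome 7 from 130645899 to 130646363, with coverage of 7.61 in Q592* and 10.0 in WT, where SMC3 was called in WT alone. These regions were chosen after their values were seen.

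On chromosome 13, 10 of the 127 stable RUNX1 regions between 75 and 100 Mb lacked GATA2, compared with 29 of 169 on the rest of the chromosome. The share was 13.2% over the whole chromosome and 13.9% over all autosomes. The segment was chosen with earlier results of these data known, and the contrast was not tested. Median RUNX1 coverage of the regions without GATA2 was 9.99 in Q592* and 8.53 in WT in the segment, and 14.2 in Q592* and 9.82 in WT outside it. The median log2 ratio was 0.34 in the segment and 0.42 outside it, and 8 of 10 and 28 of 29 regions were higher in Q592*.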
